A study of Mus musculus with 6 samples.

Results

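The genes described here are the histone genes of the mouse Hist clusters, taken as every annotated gene whose symbol starts with Hist1h, Hist2h, Hist3h or Hist4h. They numbered 69 of the 28692 genes in the count matrices (68 symbols, since Hist2h2bb is listed for 2 gene identifiers). Of these, 55 were Hist1, 11 Hist2, 2 Hist3 and 1 Hist4 genes. By symbol, 63 are core histone genes and 6 are linker histone genes. Not all are annotated as protein-coding: 1 of the 2 Hist2h2bb entries is listed as a long noncoding RNA and Hist1h2al as a processed pseudogene. Across all 6 libraries the group gave 34406 UMIs (unique molecular identifiers, each standing for 1 captured transcript), which was 0.037% of 92939846 UMIs in 20007 cells. UMIs were found for 65 of the 69 genes. The remaining Hist1h2aa, Hist1h2ba, Hist1h2bq and Hist1h2br had 0 UMIs, and counting error alone allows up to 3 UMIs for each. The last 100 annotated bases of Hist1h2ba and of Hist1h2bq also occur in other genes of the group. The division of counts is therefore uncertain for them, and this bound does not cover that. A further 39 genes had 1 to 99 UMIs and 26 had 100 or more.

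CD45-positive cells that did not take up DAPI (live cells) were sorted from C57BL/6 mice in a time course of experimental autoimmune encephalomyelitis (EAE), an autoimmune inflammation of the central nervous system that serves as a model of multiple sclerosis. The 6 groups were wild-type and miR-155KO mice, the latter lacking the microRNA miR-155, each at day 0, day 13 and day 21 relative to induction. The labels do not say whether the mice of day 0, the baseline here, had been immunized. Each group was 1 droplet library of transcript 3′ ends, from 5 mice according to the series' design text, so no group has a replicate and the spread between mice is unknown. Brain is the labelled tissue, and the protocol names brain and spinal cord. The 2 libraries of a day carry the same prefix in their titles, so a batch marked by that prefix cannot be told apart from the day.

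Histones package DNA into nucleosomes: H2A, H2B, H3 and H4 form the core and H1 binds the linker DNA between nucleosomes. Most genes of the clusters are replication-dependent, and their transcripts are made in S phase and end in a conserved stem-loop bound by the protein SLBP in place of a poly(A) tail. Several of them can also give polyadenylated transcripts, which are known from resting and differentiated cells. The libraries were made from polyA RNA, so the counts describe polyadenylated or otherwise primed histone transcripts and not the whole histone mRNA of a cell.

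The stem-loop was searched in the annotated transcripts as a pair of 6-base arms that pair with each other around a 4-base loop. Of the 67 genes found in the annotation (GENCODE M21 on GRCm38), 44 carried it, against 1.84% of 21886 other protein-coding genes. A poly(A) signal, AATAAA or ATTAAA, stood in the last 40 bases of 15. These elements are shown for the genes on which the results turn, with the 2 arms of each stem-loop in capitals, 5′ to 3′; coordinates are those of arms and loop, without the flanking bases.
Hist1h2ap (chr13:21833029-21833044, minus strand): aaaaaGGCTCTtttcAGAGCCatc
Hist1h2ae (chr13:23570668-23570683, minus strand): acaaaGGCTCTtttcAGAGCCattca
Hist1h4i (chr13:22040966-22040981, minus strand): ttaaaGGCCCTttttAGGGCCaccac
Hist1h1e (chr13:23621782-23621797, minus strand): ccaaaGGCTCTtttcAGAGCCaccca
Hist1h1c (chr13:23739512-23739527, plus strand): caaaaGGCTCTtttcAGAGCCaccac
Hist2h4 (chr3:96262939-96262954, minus strand): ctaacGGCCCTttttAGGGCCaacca
Hist3h2a (chr11:58955172-58955187, plus strand): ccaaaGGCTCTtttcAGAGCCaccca
Hist4h4 (chr6:136803998-136804013, minus strand): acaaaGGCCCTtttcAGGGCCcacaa
The arms and loops of these genes were alike or nearly so, but the annotated transcript went on for very different lengths after them. Hist1h2ap ended 3 bases after its stem-loop, Hist1h2ae 151, Hist1h4i 330, Hist1h1c 840, Hist1h1e 1153, Hist2h4 1257, Hist3h2a 1643 and Hist4h4 2445 bases after theirs. The ends of the longer ones are shown with the poly(A) signal in capitals.
Hist1h4i (chr13:22040639-22040662, minus strand): gtttacATTAAAagtattctatgc
Hist1h1c (chr13:23740336-23740359, plus strand): gcttctAATAAAaagcgtttagtt
Hist2h4 (chr3:96261697-96261720, minus strand): acataaAATAAAatcttaaaaaca
Hist3h2a (chr11:58956791-58956814, plus strand): atgcccAATAAAataagagtacgt
Hist4h4 (chr6:136801553-136801567, minus strand): agatgaAATAAAtac
Hist1h2ae, whose end is not shown, also held AATAAA in its last 40 annotated bases. Hist1h2ap and Hist1h1e held no such signal there, and Hist1h1b held neither the signal nor the stem-loop. These absences say only that the letters are not in the annotated transcript.

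Libraries held 1681 to 5630 barcodes and 6321841 to 24243660 UMIs, with median UMIs per barcode of 3019 to 4368.5. Any pair of libraries shared 5 to 32 cell barcodes, at most 0.858% of the smaller library. The host transcript of miR-155, Mir155hg, gave 2, 45 and 59 UMIs in the wild-type libraries of days 0, 13 and 21 and 0, 0 and 1 in the knockout libraries. Cells with 2 or more UMIs of Mki67 and Top2a together, both genes of dividing cells, were called cycling (1176 cells, 22 to 409 per library), and cells with 0 of both non-cycling (17893 cells). The 938 cells with exactly 1 such UMI were left out of this comparison. Their UMIs were also left out of the percentages, given below, of a gene's UMIs that came from cycling cells. A cycling cell had a median of 10650 UMIs and a non-cycling cell 3298, and levels are therefore given as CPM, the UMIs of a gene scaled to a common total for the same cells, a scale on which 3′ counts need no division by transcript length.

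A small set of genes made up most of the signal. Hist1h2ap (6745 UMIs), Hist1h1c (4661), Hist3h2a (4075), Hist1h2bc (3913), Hist1h1e (2976) and Hist4h4 (1961) held 70.7% of all UMIs of the group. By the histone named in the symbol, H2A genes gave 38.0% of the UMIs, H1 genes 26.9%, H2B genes 17.4%, H4 genes 14.8% and H3 genes 2.84%. Summed over all 69 genes, cycling cells measured 741 to 1873 CPM and non-cycling cells 203 to 440.3 CPM, so the states did not overlap in any library. The ratio of cycling to non-cycling cells within a library was 5.7 to 9.16 for H2A, 2.47 to 4.68 for H3, 1.69 to 4.19 for H1, 1.22 to 2.8 for H4 and 0.826 to 1.59 for H2B. Core genes together were 2.59- to 5.23-fold higher in cycling cells, a range over libraries that overlapped that of the linker genes. Within each library, however, the ratio was higher for core than for linker genes. The ratios were closest in the wild-type library of day 13. There core genes measured 631.1 CPM in cycling and 146.8 in non-cycling cells, and linker genes 235.7 and 56.2. The difference between core and linker genes was not tested.

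Cycling cells were compared with non-cycling cells of the same library across all genes. The 2 states differed in class makeup. Granulocyte/monocyte progenitors, gated by marker genes, made up 13.7% of cycling and 0.179% of non-cycling cells. Cells without a class made up 28.3% and 15.7%. The part of this makeup in the pooled differences was not tested, apart from repeating the comparison within 4 classes below. Of the 26 histone genes with enough UMIs to be tested, 17 were higher and 3 lower in cycling cells, and 6 did not pass the test. Over all 10589 genes tested, 24.3% were higher and 24.2% lower. The median log2 difference of the 26 genes was 1.67, against -0.05 over all genes. The largest differences belonged to Hist1h1b, Hist1h2ab, Hist1h2ap and Hist1h1a; the genes that were lower were Hist4h4, Hist3h2a and Hist1h2bc. All 26 genes of a list of S-phase genes and all 24 of a G2/M list were higher as well, and Slbp, which encodes the stem-loop binding protein, rose by 1.91.

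Linker genes were spread over the whole range. Hist1h1b encodes the linker histone H1.5, and its cycling cells measured 136, 79.2 and 73.2 CPM in the wild-type libraries of days 0, 13 and 21 and 100.2, 75.0 and 50.8 CPM in the knockout libraries. Its non-cycling cells measured 1.97, 1.52 and 1.76 CPM in the wild type and 0.69, 0.965 and 2.15 CPM in the knockout. Every cycling value lay far above every non-cycling one (log2 difference 5.73, SE 0.25, adjusted p = 2.8e-07), and 90.0% of its UMIs came from cycling cells. Hist1h1e (H1.4) measured 118, 92.2 and 68.6 CPM in cycling wild-type cells and 74.5, 77.5 and 50.2 CPM in cycling knockout cells. In non-cycling cells it measured 39.9, 21.9 and 18.8 CPM in the wild type and 31.1, 20.6 and 24.6 CPM in the knockout. Its states did not overlap either, yet the difference was smaller (log2 1.72, SE 0.15, adjusted p = 1.9e-05) and only 37.5% of its UMIs came from cycling cells. The annotated end of Hist1h1e lies in a stretch that Hist1h2be shares on the same strand, so the division of reads between these genes is uncertain.

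Hist1h1c (H1.2) behaved otherwise. Cycling cells measured 68.1, 48.6 and 50.02 CPM in the wild type and 54.4, 41.3 and 45.5 CPM in the knockout. Non-cycling cells measured 90.2, 31.4 and 44.6 CPM in the wild type and 74.2, 36.5 and 66.4 CPM in the knockout. The values overlapped, cycling cells were the higher ones in 3 of 6 libraries, and the difference did not pass the test (log2 0.03, SE 0.16, adjusted p = 0.877). Hist1h1d (H1.3) measured 4.67 and 3.01 CPM in the wild-type and knockout library of day 0, 3.06 and 2.27 at day 13 and 3.34 and 4.52 at day 21, and rose by 2.597 in cycling cells. Hist1h1a (H1.1) measured 2.34 and 2.69, 1.04 and 1.16, and 1.16 and 0.774 CPM in the same order, and rose by 4.38 (SE 0.30). The sixth linker gene, Hist1h1t, a testis-type variant, had 1 UMI.

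Among H2A genes, Hist1h2ap had the most UMIs. Of its UMIs in cycling and non-cycling cells, 83.1% lay in cycling cells. Its cycling cells measured 432.5, 351 and 289 CPM in the wild type and 922, 550.4 and 386 CPM in the knockout at days 0, 13 and 21. Non-cycling cells measured 11.1, 10.5 and 11.6 CPM in the wild type and 29.2, 14.8 and 22.2 CPM in the knockout. The lowest cycling value was 289 CPM and the highest non-cycling value 29.2 CPM (log2 4.94, SE 0.19, adjusted p = 1.7e-07). The last 100 annotated bases of Hist1h2ap also occur in Hist1h2ao, which has 15 UMIs, so counts of these 2 genes cannot be separated with certainty. Hist1h2ae measured 143, 62.4 and 30.4 CPM in cycling wild-type cells and 177.5, 39.4 and 47.3 CPM in cycling knockout cells. Its non-cycling values were 6.97, 3.18 and 2.76 CPM in the wild type and 13.98, 3.56 and 6.29 CPM in the knockout, so the states stayed apart (log2 3.75, SE 0.20).

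Hist3h2a, which with Hist3h2ba makes up the Hist3 genes, went the other way. Cycling cells measured 36.2, 20.01 and 24.2 CPM in the wild type and 42.9, 22.1 and 19.9 CPM in the knockout. Non-cycling cells measured 60.3, 46.3 and 35.1 CPM in the wild type and 73.7, 48.0 and 50.6 CPM in the knockout. It was lower in cycling cells in 6 of 6 libraries (log2 -0.91, SE 0.13, adjusted p = 0.00051), and 8.13% of its UMIs came from cycling cells. Trim17 overlaps it on the same strand and Gm44313 on the other. Hist2h2ac measured 4.56 and 5.07 CPM in the wild-type and knockout library of day 0, 5.18 and 3.99 at day 13 and 2.72 and 3.16 at day 21, and rose by 2.57 in cycling cells. Hist2h2aa1 measured 5.73 and 7.92, 2.66 and 2.66, and 1.49 and 4.07 CPM in the same order, and rose by 0.86. The sparser Hist1h2ab (61 UMIs), Hist1h2ak (89 UMIs) and Hist1h2ac (96 UMIs) rose by 5.00, 3.95 and 3.33.

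H2B genes, as a sum, differed least between the states. Hist1h2bc measured 62.6, 23.9 and 24.7 CPM in cycling wild-type cells and 48.7, 23.3 and 22.8 CPM in cycling knockout cells. Its non-cycling values were 69.8, 31.4 and 35.4 CPM in the wild type and 64.6, 27.3 and 67.9 CPM in the knockout. It was lower in cycling cells in 6 of 6 libraries by a small amount (log2 -0.48, SE 0.18, adjusted p = 0.046). Hist3h2ba measured 6.66 and 6.49 CPM in the wild-type and knockout library of day 0, 6.36 and 6.92 at day 13 and 7.67 and 7.94 at day 21, a narrow span, with a log2 difference of -0.01 (SE 0.22) between the states. Hist1h2be measured 6.54 and 7.92, 3.55 and 3.82, and 3.26 and 7.55 CPM in the same order, with a log2 difference of 0.12 (SE 0.23), and neither of these passed the test. Hist2h2be measured 3.16 and 3.64, 3.11 and 3.10, and 2.52 and 4.19 CPM and rose by 0.97. Hist1h2bj measured 1.87 and 2.38, 1.53 and 1.83, and 1.07 and 2.39 CPM; it rose by 3.63, the largest difference among the tested H2B genes. Hist1h2bg (2.22 and 2.69, 0.789 and 1.05, and 0.702 and 1.87 CPM) had too few UMIs to be tested.

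Of the tested H4 genes, Hist4h4 alone was lower in cycling cells. Cycling cells measured 16.7, 3.38 and 6.99 CPM in the wild type and 2.86, 7.25 and 14.01 CPM in the knockout. Non-cycling cells measured 56.7, 9.73 and 11.4 CPM in the wild type and 53.0, 11.4 and 42.8 CPM in the knockout. It was lower in cycling cells in 6 of 6 libraries (log2 -1.30, SE 0.25, adjusted p = 0.0023), and 5.21% of its UMIs came from cycling cells. Microglia-like cells, in which Hist4h4 was high, made up 9.1% of cycling and 35.2% of non-cycling cells; within microglia-like cells alone the difference was -0.96. Hist1h4i measured 58.4, 51.2 and 52.2 CPM in cycling wild-type cells and 100.2, 38.1 and 52.0 CPM in cycling knockout cells. Its non-cycling values were 11.8, 8.74 and 10.98 CPM in the wild type and 10.9, 9.06 and 12.6 CPM in the knockout, all below every cycling value (log2 2.42, SE 0.15).

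Hist2h4 measured 17.4 and 12.2 CPM in the wild-type and knockout library of day 0, 5.82 and 6.04 at day 13 and 5.86 and 13.6 at day 21, with a log2 difference of -0.17 (SE 0.20) that did not pass. Hist1h4d measured 5.84 and 5.70, 4.04 and 3.43, and 2.6 and 3.68 CPM in the same order and rose by 2.71. Hist1h4c measured 3.04 and 3.96, 0.986 and 0.886, and 0.949 and 3.29 CPM and gave 1.09 (SE 0.46, adjusted p = 0.075). Hist1h4h measured 1.75 and 4.28, 1.13 and 0.941, and 0.702 and 1.94 CPM and rose by 1.04. H4 genes thus held both directions. H3 genes were sparse. Hist2h3c1 measured 5.84 and 5.86, 1.33 and 0.775, and 1.16 and 5.94 CPM and gave 0.46 (SE 0.28), which did not pass. Hist1h3e measured 2.22 and 1.74, 1.53 and 1.05, and 1.03 and 2.39 CPM and rose by 1.63. Hist1h3a (4.09 and 3.64, 1.18 and 0.997, and 1.16 and 2.39 CPM) and Hist2h3c2 (2.69 and 1.90, 1.04 and 0.609, and 0.825 and 2.19 CPM) were not tested.

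**Figure D1:**
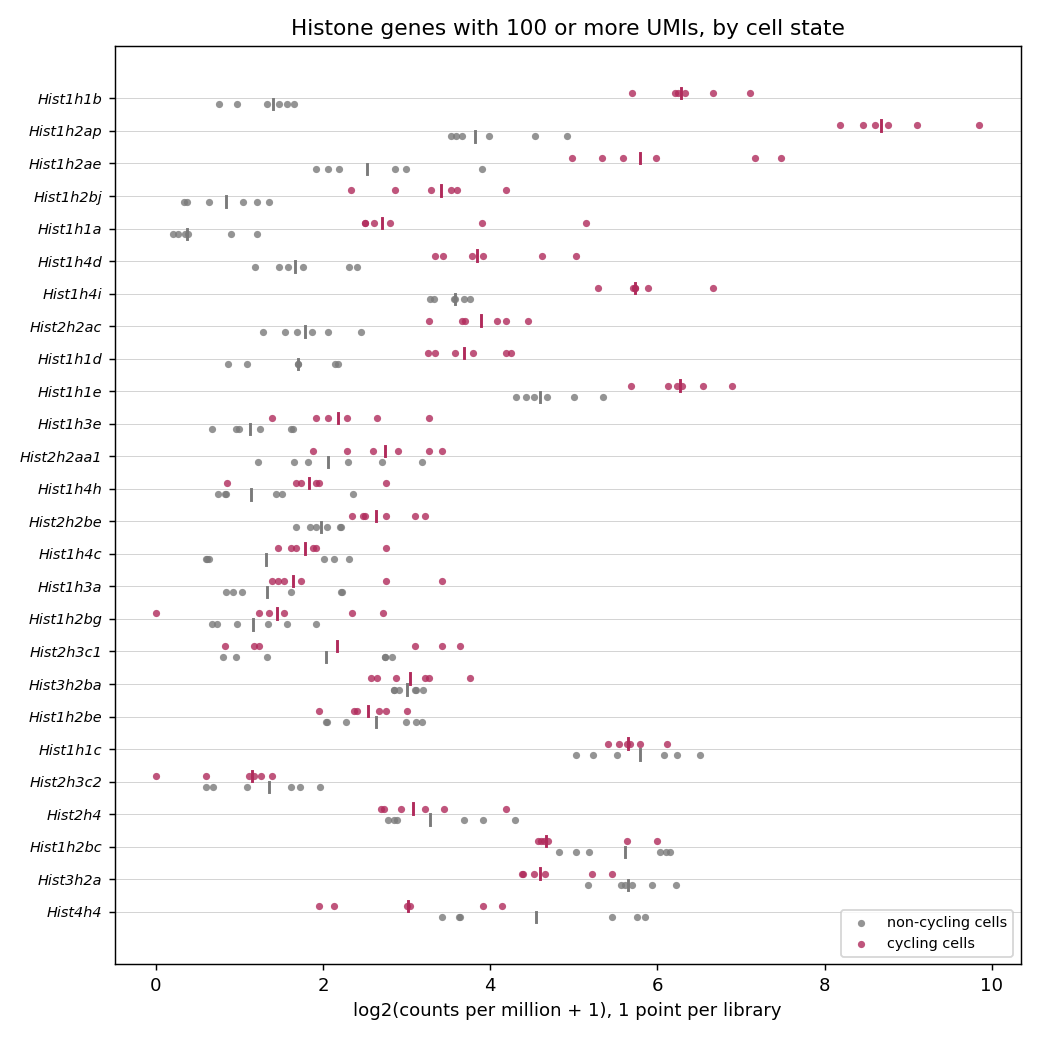
Levels of the 26 histone genes with 100 or more UMIs, as log2(CPM + 1), in cycling (red) and non-cycling (grey) cells, 1 point per library with the median as a bar. From Hist1h1b at the top, with 50.8 to 136 CPM in cycling cells against 0.69 to 2.15 CPM, the states draw together and change order, down to Hist4h4 at the bottom.

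Depth bears on these calls, since the cycling gate needs UMIs and deep cells pass it more easily. With every cell thinned to 1500 UMIs before the gate, 5 libraries kept 10 or more cycling cells (25 to 116 each; the knockout library of day 0 dropped out) and 14 of the genes could be tested. Of these, 7 were higher, a count given without the share over all genes. Hist1h1b (5.25), Hist1h2ap (4.86), Hist1h1a (4.88), Hist1h2ae (3.85), Hist2h2ac (3.21), Hist1h4i (2.28) and Hist1h1e (2.13) gave log2 differences close to those above. Only Hist1h2bc (-1.51) was lower; Hist3h2a gave -0.40 and Hist4h4 -0.51, neither past the threshold, and Hist2h4 (0.91) and Hist3h2ba (1.14) changed sign without passing.

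The length of transcript after the stem-loop was set beside the cycling difference for the 21 tested genes with a stem-loop. Spearman's rho was -0.499, given as a description over genes that share all libraries. Hist1h2ap and Hist1h2ab, with 3 and 11 bases after the stem-loop, gave 4.94 and 5.00, whereas Hist3h2a and Hist4h4, with 1643 and 2445, gave -0.91 and -1.30. There were exceptions at both ends: Hist1h1d (4884 bases) and Hist1h2ac (2010 bases) were higher in cycling cells by 2.597 and 3.33, and Hist3h2ba, with 169 bases, gave -0.01. The 11 tested genes with a poly(A) signal in the last 40 annotated bases had a median difference of 0.12 (range -1.30 to 3.75). The 15 tested genes without a signal there had a median of 2.71 (range -0.48 to 5.73). Some annotated transcripts end just after the stem-loop, as in Hist1h2ap, or hold none, as in Hist1h1b. A missing signal therefore describes the annotated transcript only.

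**Figure D2:**
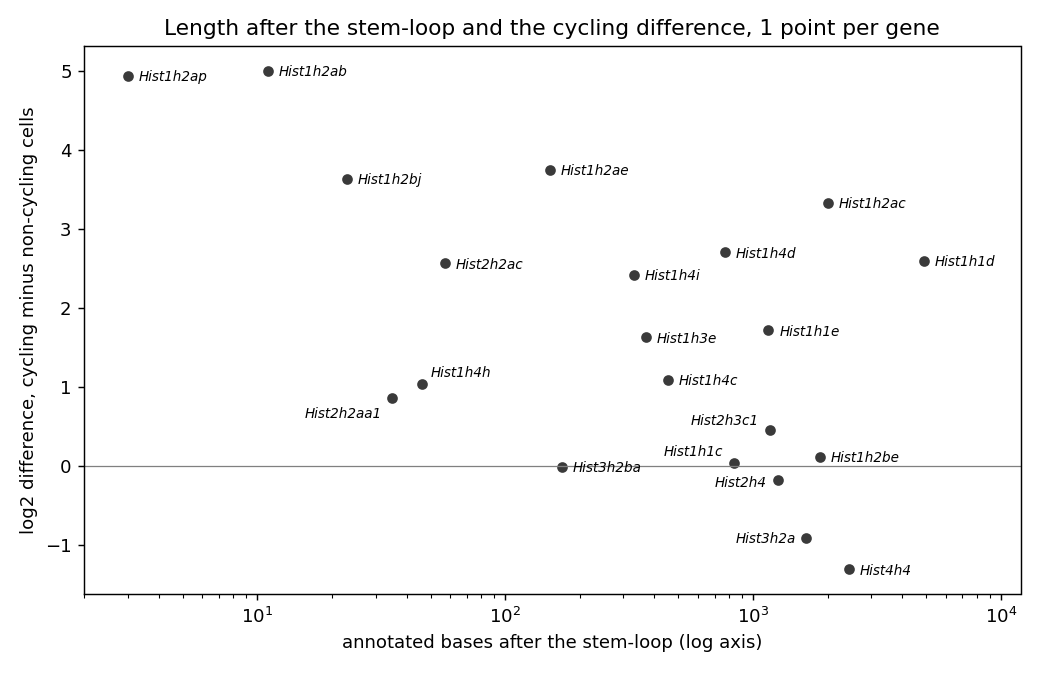
Log2 difference between cycling and non-cycling cells against the number of annotated bases after the stem-loop (log axis), 1 point for each of 21 histone genes. The genes below 0 lie at 1257 bases or more after the stem-loop, apart from Hist3h2ba at 169 bases and -0.01.

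Promoters differed as well. Those of 60 of the genes were found in RefSeq (GRCm38.p6), from 250 bases before to 50 after the start, and searched on both strands for 4 motifs. CCAAT stood in 85% of them against 37.4% of all 32851 promoters, TATAAA in 56.7% against 13.6%, and AAACACA, part of the H1 box, in 11.7% against 7.18%. The octamer ATTTGCAT stood in 21.7% against 1.74%, in 7 of 18 H2A and 6 of 15 H2B promoters and in 0 of the H1, H3 and H4 promoters. AAACACA stood in 4 of 5 H1 promoters. CCAAT stood in 5 of 5 H1, 18 of 18 H2A, 15 of 15 H2B and 10 of 10 H3 promoters, but in only 3 of 12 H4 promoters. A gene at each end of the range and the most counted gene are shown, with matched motifs in capitals.
Hist1h1b (chr13:21780576-21780875, minus strand): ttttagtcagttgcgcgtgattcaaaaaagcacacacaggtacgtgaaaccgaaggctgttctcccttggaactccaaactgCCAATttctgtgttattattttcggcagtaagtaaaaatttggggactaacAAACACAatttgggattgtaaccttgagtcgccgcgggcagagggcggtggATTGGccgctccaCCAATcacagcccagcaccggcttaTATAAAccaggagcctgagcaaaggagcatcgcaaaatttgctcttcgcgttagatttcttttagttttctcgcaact
Hist1h2ap (chr13:21833426-21833725, minus strand): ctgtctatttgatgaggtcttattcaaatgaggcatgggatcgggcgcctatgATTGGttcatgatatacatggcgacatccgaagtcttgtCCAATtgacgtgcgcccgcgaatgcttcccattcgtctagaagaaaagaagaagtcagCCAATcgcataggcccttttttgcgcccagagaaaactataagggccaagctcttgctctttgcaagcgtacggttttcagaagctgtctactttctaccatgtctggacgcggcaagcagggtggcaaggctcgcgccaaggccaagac
Hist4h4 (chr6:136804382-136804681, minus strand): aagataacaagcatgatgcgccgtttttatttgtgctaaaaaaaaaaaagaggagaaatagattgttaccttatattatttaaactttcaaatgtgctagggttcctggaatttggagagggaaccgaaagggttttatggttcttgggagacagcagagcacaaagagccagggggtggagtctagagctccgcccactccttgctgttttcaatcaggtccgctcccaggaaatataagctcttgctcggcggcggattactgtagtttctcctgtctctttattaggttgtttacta
Hist1h1b held the CCAAT box, the TATA box and the H1 box, Hist1h2ap held the CCAAT box, and Hist4h4 held none of the 4. A match of letters is not evidence of a bound site.

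Cell classes were assigned from marker genes that include no histone gene, and the cycling comparison was repeated within the 4 classes that had enough cycling cells. In T-like cells (3 libraries) 6 of 10 tested genes were higher and 0 lower, against 12.1% and 8.42% of all genes. In microglia-like cells (4 libraries, days 13 and 21) 4 of 9 were higher and 2 lower, against 6.69% and 5.52%. In monocyte/macrophage-like cells (5 libraries) 5 of 6 were higher and 1 lower, against 16.8% and 16.6%, and in neutrophil-like cells (5 libraries) 4 of 7 were higher and 2 lower, against 24.2% and 26.5%. Hist1h1b, Hist1h2ap and Hist1h1e were higher in all 4 classes. In the order T, microglia, monocyte/macrophage and neutrophil, Hist1h1b rose by 6.69, 4.65, 5.16 and 5.71, Hist1h2ap by 5.86, 3.82, 5.27 and 5.04, and Hist1h1e by 2.39, 1.04, 2.45 and 2.34.

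The genes that were lower in cycling cells differed from class to class. Hist1h2bc was lower in microglia-like (-1.07) and neutrophil-like cells (-1.43) and gave 0.33 in T-like cells, which did not pass. Hist4h4 was lower in microglia-like cells (-0.96, SE 0.32, adjusted p = 0.047). Hist3h2a was lower in monocyte/macrophage-like cells (-0.93, SE 0.23). Hist1h1c was higher in cycling monocyte/macrophage-like cells (0.67, SE 0.22, adjusted p = 0.037) and lower in cycling neutrophil-like cells (-0.79, SE 0.17, adjusted p = 0.00067), while T-like (0.24) and microglia-like cells (-0.32) did not pass. In the monocyte/macrophage-like class, cycling cells measured 32.9 to 59.0 CPM of Hist1h1c and non-cycling cells 18.3 to 38.9; in the neutrophil-like class they measured 41.1 to 82.7 and 72.3 to 96.5. The 2 calls of microglia-like cells were not stable: DESeq2 called 0 genes lower, and without the knockout library of day 21 edgeR called 0.

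**Figure D3:**
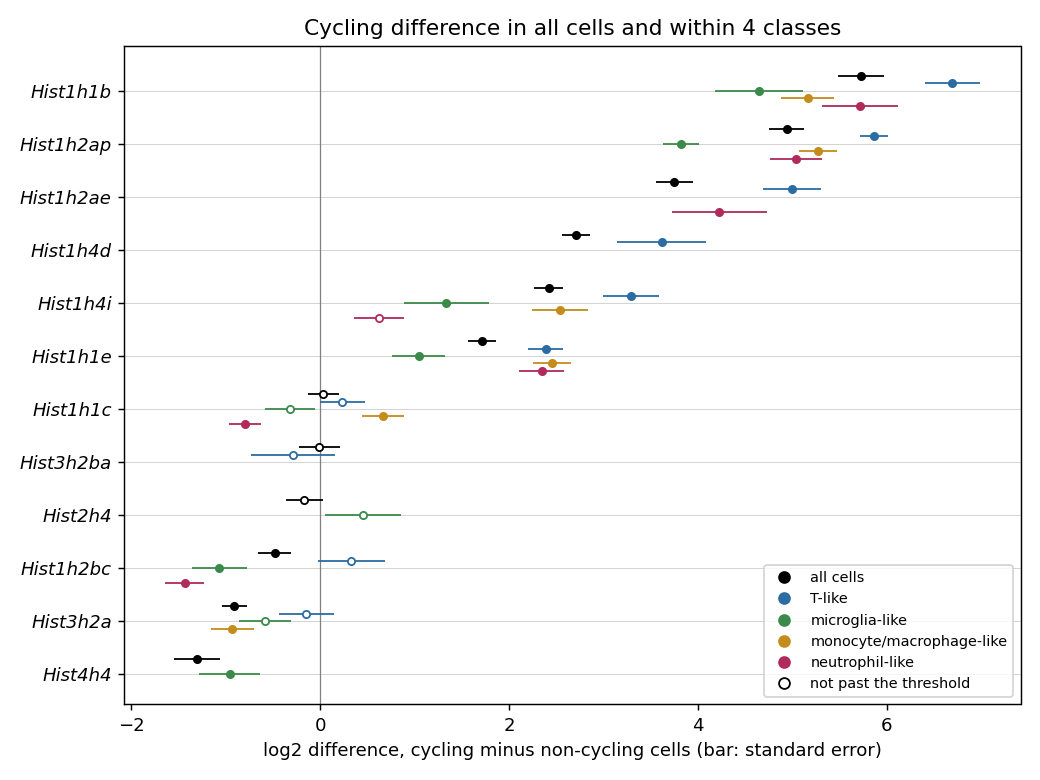
Log2 difference between cycling and non-cycling cells with its standard error, in all cells and within 4 marker-gated classes, for the histone genes tested in at least 1 class. Filled points passed the threshold. Hist1h1b, Hist1h2ap and Hist1h1e lie to the right of 0 in every class, and Hist1h1c lies on both sides.

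Cycling cells were further split into 589 S-leaning and 576 G2/M-leaning cells by their summed S-phase and G2/M genes, a division of a range in which 193 cells lay between 40% and 60%. Of 14 histone genes tested over the 5 libraries with enough cells, 0 were higher and 5 lower in S-leaning cells, against 8.17% and 8.62% of all genes. The count at an unadjusted p under 0.05 was 8. DESeq2 called 0 higher and 3 lower; without the knockout library of day 21 edgeR called 1 higher and 3 lower, and without the wild-type library of day 13 it called 2 lower. The 5 lower genes were Hist1h4d (-0.92), Hist3h2a (-0.69), Hist1h1e (-0.66), Hist1h2ae (-0.61) and Hist1h2ap (-0.36, SE 0.09). Hist1h2ap measured 295 to 504 CPM in S-leaning and 285 to 615 CPM in G2/M-leaning cells, so its groups overlapped. Hist1h1a gave 0.92 (SE 0.35, adjusted p = 0.084) and Hist1h1b 0.05 (SE 0.11), neither past the threshold. Genes of histone mRNA processing, Slbp (0.77), Casp8ap2 (0.85) and Eri1 (0.59), were higher in S-leaning cells. With a gate of 4 UMIs of Mki67 and Top2a, 12 genes could be tested, 1 was higher and 1 lower, and Hist1h2ap gave 0.01.

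Non-cycling cells of 7 classes were then compared, each with the mean of the others. Among 9239 tested genes, 9 were histone genes of the clusters, and the other histone genes had too few UMIs. Microglia-like cells, the resident macrophages of the brain, had 5 of 9 higher and 0 lower, against 38.3% and 25.3% of all genes. Hist4h4 measured 85.0, 31.9 and 43.1 CPM in wild-type microglia-like cells at days 0, 13 and 21 and 69.4, 40.6 and 80.1 CPM in knockout ones. In other classes it reached 25.3 CPM at most, in the knockout B lineage library of day 0 with 5 UMIs, or 28.4 CPM in the plasmacytoid dendritic class with 10 UMIs, which was not tested. Microglia-like cells were therefore above all other classes in every library (log2 3.75, SE 0.23, adjusted p = 3.3e-16). They were also higher in Hist2h4 (2.03), Hist1h2bc (1.39), Hist1h2ap (1.24) and Hist3h2a (0.71). Genes of the dissociation response moved with this class: 14 of 17 were higher in it.

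In the whole libraries Hist4h4 was higher in the 3 with the most microglia-like cells than in the other 3. It measured 52.3 and 49.1 CPM in the wild-type and knockout library of day 0 (63% and 73.1% microglia-like cells), 8.24 and 10.5 CPM at day 13 (26.6% and 15.7%) and 10.5 and 38.3 CPM at day 21 (12% and 47.9%).

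Neutrophil-like cells showed another pattern, with 3 of 9 higher and 3 lower, against 30% and 34.4%. Hist1h2bc (2.40, SE 0.18), Hist1h4i (2.20, SE 0.22) and Hist1h1c (2.02, SE 0.16) were higher. Hist1h1c measured 96.5, 76.6 and 75.4 CPM in wild-type neutrophil-like cells and 111.8, 72.3 and 75.5 CPM in knockout ones. Hist3h2ba (-2.19), Hist2h4 (-1.81) and Hist3h2a (-0.69) were lower; Hist3h2ba had 7 UMIs in all non-cycling neutrophil-like cells. Monocyte/macrophage-like cells had 1 higher, Hist3h2a (0.65), and 4 lower, against 27.3% and 16.5%: Hist3h2ba (-1.82), Hist2h4 (-1.33), Hist1h1c (-0.80) and Hist1h1e (-0.63). Without the knockout library of day 13, 0 were higher, and without the wild-type library of day 21, 2 were higher and 2 lower.

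Hist3h2ba was higher in T-like and B lineage-like cells. In NK-like cells it gave 0.55 (SE 0.845, adjusted p = 0.758). In non-cycling cells of the plasmacytoid dendritic class, not tested, it measured 25.6 and 47.1 CPM in the wild-type and knockout library of day 13. Over all non-cycling cells it measured 6.19 to 8.13 CPM. Hist3h2a measured 88.1 and 128.5 CPM in the same plasmacytoid dendritic cells, against 35.1 to 73.7 CPM over all non-cycling cells. T-like cells had 1 higher, Hist3h2ba (1.06), and 4 lower, against 19% and 16.8%: Hist1h2bc (-1.51), Hist1h4i (-1.10), Hist3h2a (-1.02) and Hist1h1c (-0.79); without the wild-type library of day 13, 0 were higher. B lineage-like cells had 4 higher and 0 lower, against 23.2% and 22.1%: Hist3h2ba (1.80), Hist2h4 (1.28), Hist1h1e (0.55) and Hist3h2a (0.50). Without either library of day 0 or the wild-type library of day 21, 2 were higher. Their libraries were uneven: Hist1h1c measured 134 and 141.6 CPM at day 0 (37 and 28 UMIs) and 15.0 to 45.3 CPM at the later days. Conventional dendritic-like cells had 1 called, Hist3h2a (0.64, adjusted p = 0.049), against 18.3%, and leaving out any of 4 libraries ended that call. Of the 351 cells of this class over all libraries, 267 lay within 10% of the lead needed for the class, so most were narrowly assigned. In NK-like cells edgeR called 0 of 9, against 13.2%, with 1 gene at an unadjusted p under 0.05; DESeq2 called 0, and without the wild-type library of day 13 edgeR called 1. Of every 10000 UMIs, neutrophil markers took a median of 8.5 to 14.3 in all other classes and 4100 in neutrophil-like cells, and their part in these levels was not tested.

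**Figure D4:**
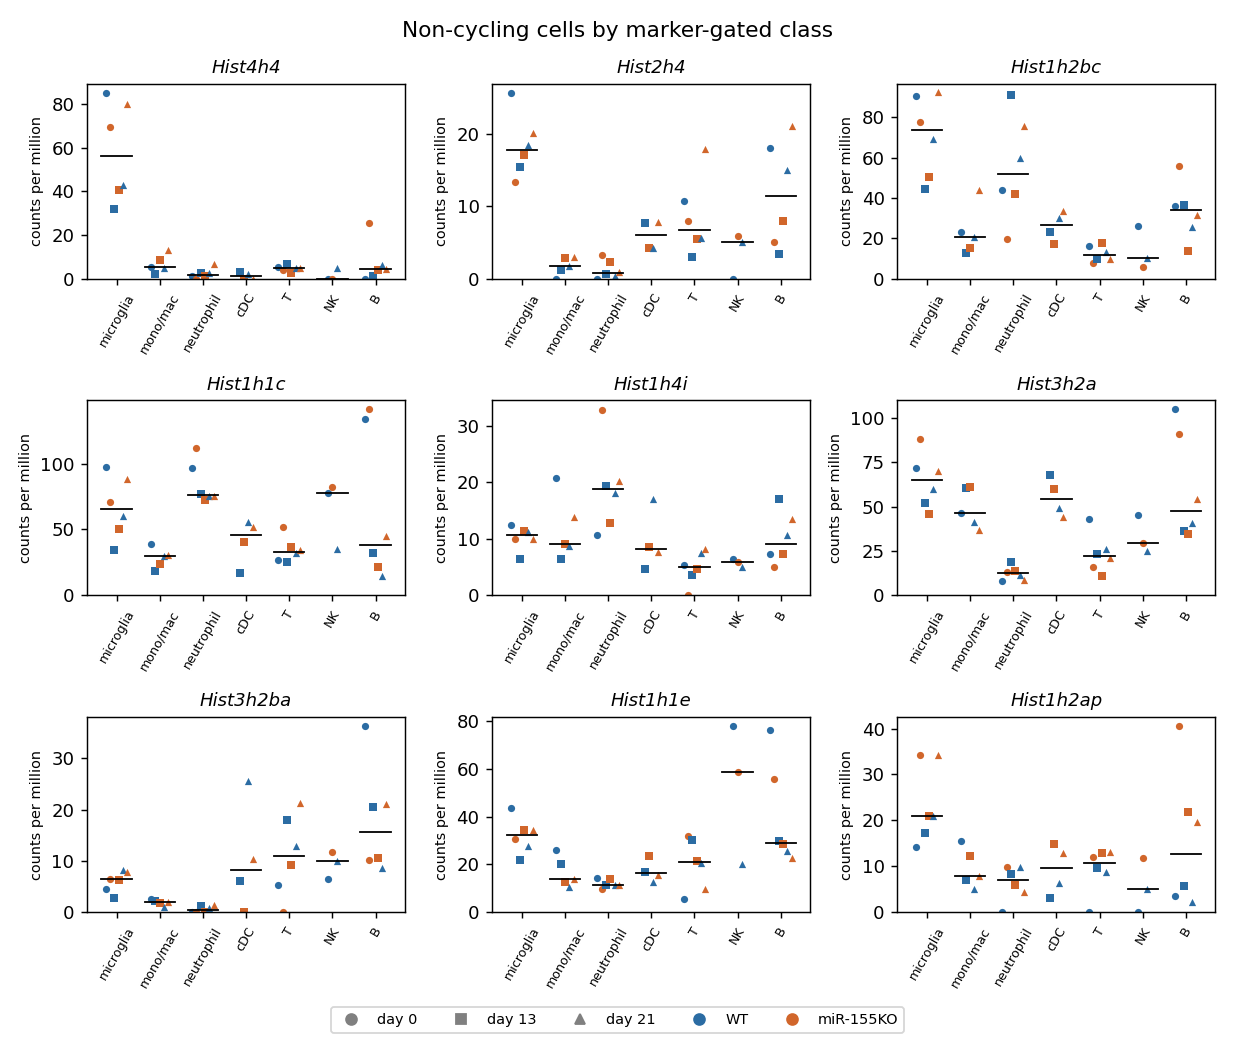
CPM of the 9 tested histone genes in non-cycling cells of 7 marker-gated classes, 1 point per library with 50 or more cells of the class and the median as a line; colour gives the genotype and shape the day. Hist4h4 lies at 31.9 to 85.0 CPM in microglia-like cells and at most at 25.3 CPM in the other classes plotted, and the 2 highest points of Hist1h1c are the B lineage-like cells of day 0.

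Days were compared in microglia-like cells, the most numerous class (6546 cells), with 1 library of each genotype per day. At day 13 against day 0, 2 of 23 tested genes were higher and 1 lower, against 13.3% and 9.88% of all genes. Hist1h2ap rose by 1.28 (SE 0.21, adjusted p = 0.0063) and Hist1h1b by 3.59 (SE 0.77, adjusted p = 0.017), while Hist4h4 was lower (log2 -1.01, SE 0.28, adjusted p = 0.037). At day 21 against day 0, 2 were higher and 0 lower, against 7.57% and 2.7%: Hist1h2ap rose by 0.94 (SE 0.20) and Hist1h1b by 3.71 (SE 0.75). Both calls were lost without either library of day 0, where Hist1h2ap gave 0.67 without the wild-type one and 1.27 without the knockout one. Hist1h2ap also lost its day 21 call with DESeq2, with the stricter class gate and without either library of day 21. At day 21 against day 13 edgeR called 0 higher and 0 lower, against 0% and 0%, with 6 genes at an unadjusted p under 0.05; DESeq2 called none either. Without the wild-type library of day 21 edgeR called 3 higher there, and without either library of day 13, 2.

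The share of cycling cells moved with these changes. Mki67 rose by 3.62 and Top2a by 4.16 in microglia-like cells at day 13, and 22 of 23 tested G2/M genes were higher. In non-cycling microglia-like cells alone, 0 histone genes were higher at either day, and Hist1h2ap differed by 0.02 at day 13 and 0.48 at day 21. The lower level of Hist4h4 at day 13 kept its call there (-0.87). Of the dissociation response genes, 14 of 17 were lower at day 13 and at day 21, and their part in the Hist4h4 difference was not tested. Without the wild-type library of day 0, Hist1h2ap (0.98), Hist1h1b (6.74) and Hist4h4 (-0.50) all lost their calls at day 13; without the knockout library of day 0, Hist1h1b (2.95) did. Hist1h1b had 0 to 4 UMIs in the microglia-like cells of a day 0 library, so its fitted difference depends on few counts. The number lower at day 13 was 2 without the knockout library of day 0, 3 without the knockout library of day 13 and 5 without any one of the remaining libraries of days 13 and 21.

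The genotypes could be tested only over days, with day as a block. In microglia-like cells 0 of 21 histone genes were called, against 0% of 10319 genes, and 1 had an unadjusted p under 0.05. None were called in T-like (0 of 9, against 0.648%; 3 at an unadjusted p under 0.05), B lineage-like (0 of 7, against 0%; 0), neutrophil-like (0 of 8, against 0.126%; 0), monocyte/macrophage-like (0 of 11, against 0%; 2) or conventional dendritic-like cells (0 of 7, against 0.326%; 0), and DESeq2 likewise called 0 in each of these. In NK-like cells 1 of 3 was called, against 0.548%: Hist1h2ap was higher in the knockout (1.85, SE 0.30, adjusted p = 0.0047). DESeq2 gave 2.07 there without passing. This rests on days 0 and 21, with 2 and 0 UMIs in the knockout and wild type at day 0 and 75 and 29 at day 21.

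Hist1h2ap leaned the same way in pooled cells and in several classes without passing, but gave 0.08 in T-like and -0.30 in neutrophil-like cells. In all non-cycling cells pooled, a comparison chosen after these values were seen, it measured 10.5 to 11.6 CPM in the wild type and 14.8 to 29.2 CPM in the knockout, higher in the knockout on 3 of 3 days (0.89, SE 0.19, adjusted p = 0.896). Of 26 histone genes tested there 0 were called, against 0.00829% of all genes; 2 had an unadjusted p under 0.05, and DESeq2 called 0. In all cycling cells, chosen likewise, it measured 289 to 432.5 CPM in the wild type and 386 to 922 CPM in the knockout (0.69, SE 0.16, adjusted p = 0.67). Of 24 genes tested 0 were called, against 0.0425%; 5 had an unadjusted p under 0.05, and DESeq2 called 0. The pooled libraries also differed in class makeup. Non-cycling microglia-like cells were above the mean of the other classes in Hist1h2ap (log2 1.24). Microglia-like cells made up 63% and 73.1% of the wild-type and knockout library of day 0. They made up 26.6% and 15.7% at day 13 and 12% and 47.9% at day 21. The part of this makeup in the pooled differences was not tested. By class, the Hist1h2ap difference was 0.67 (SE 0.17) in microglia-like, 1.03 (SE 0.27) in monocyte/macrophage-like and 0.92 (SE 0.62) in B lineage-like cells. It was 0.33 (SE 0.28) in conventional dendritic-like, 0.08 (SE 0.18) in T-like and -0.30 (SE 0.25) in neutrophil-like cells. Top2a gave -0.93 in microglia-like, 0.44 in monocyte/macrophage-like, -0.45 in B lineage-like, -0.04 in conventional dendritic-like, -0.64 in T-like, -0.92 in neutrophil-like and 0.54 in NK-like cells, none past the threshold. In NK-like cells at day 21, Top2a had 54 UMIs in the knockout and 46 in the wild type (ratio 1.68, 1.11 to 2.55). The part of cycling cells in the Hist1h2ap call of NK-like cells was not tested.

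**Figure D5:**
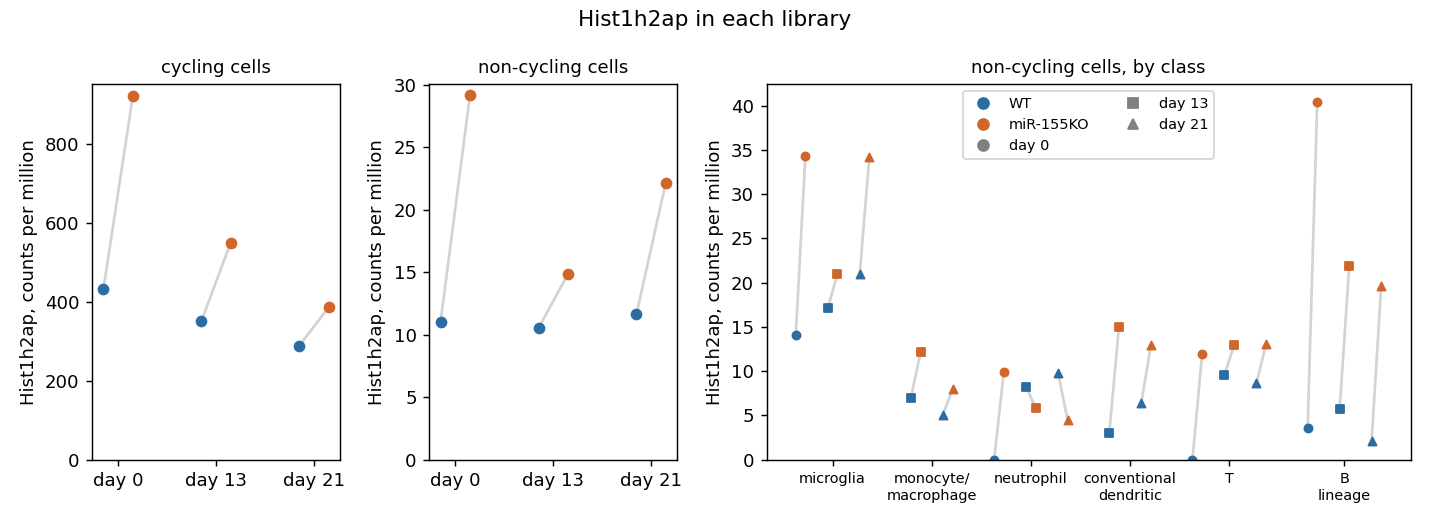
CPM of Hist1h2ap in every library, in all cycling cells (left), all non-cycling cells (middle) and non-cycling cells of 6 classes (right); blue is wild type and orange miR-155KO, lines join the libraries of a day. The knockout is higher on each day in both pooled panels, and in neutrophil-like cells it is lower at days 13 and 21.

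Within a day there is 1 library per genotype and no test, so a gene was counted as apart when its CPM differed 1.5-fold or more with at least 10 CPM in either library; intervals cover counting error only. In microglia-like cells 3 of 9 histone genes were apart at day 0, against 2.67% of all genes, 0 of 8 at day 13, against 7.68%, and 5 of 11 at day 21, against 18%. At day 0 Hist1h2ap measured 34.0 CPM in the knockout and 15.9 in the wild type (144 and 78 UMIs; ratio 2.15, 95% interval 1.62 to 2.87), Hist1h2ae gave a ratio of 1.76 and Hist2h4 of 0.522. At day 21 Hist4h4 measured 78.6 and 40.7 CPM (ratio 1.93, 1.54 to 2.45), and Hist1h2ap (1.61), Hist1h2ae (3.58), Hist2h3c1 (4.67) and Hist1h2be (2.07) were also higher in the knockout. Hist4h4 had a ratio of 0.816 at day 0 (0.7004 to 0.9502) and 1.28 at day 13 (0.9275 to 1.77), neither of them 1.5-fold apart. The knockout library measured lower at day 0 beyond counting error only, and the interval of day 13 included equal levels.

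In other classes the shares apart were high for all genes. In T-like cells 6 of 8, 4 of 9 and 4 of 9 were apart at days 0, 13 and 21, against 39.5%, 11% and 16.7%; Hist1h1e gave 0.944 at day 0 (8 and 14 UMIs; 0.343 to 2.41), 0.593 at day 13 and 0.535 at day 21. In neutrophil-like cells 5 of 7, 3 of 8 and 2 of 7 were apart, against 38.7%, 16.9% and 19.6%, and 4 of 5, 3 of 3 and 2 of 2 of them were lower in the knockout. Among all genes apart in neutrophil-like cells, 1223 of 1913, 633 of 908 and 878 of 1030 were lower, so most genes leaned that way. In non-cycling neutrophil-like cells 3, 1 and 0 histone genes were apart, counts given without the share over all genes. In monocyte/macrophage-like cells 1 of 6 was apart at day 13, against 4.28%, and 4 of 9 at day 21, against 19.7%; the first was Hist1h2ap, with 194 and 67 UMIs (ratio 2.89, 2.18 to 3.87). B lineage-like cells had 12 of 15, 4 of 7 and 5 of 9 apart, against 45%, 17.7% and 34.3%. There Hist1h2ap measured 38.8 CPM in the knockout and 196.9 in the wild type at day 0, 42.8 and 5.66 at day 13 and 104 and 12.2 at day 21. The direction at day 0 turned in non-cycling cells, with 40.45 and 3.62 CPM (8 and 1 UMIs); 10 wild-type and 0 knockout B lineage-like cells of that day were cycling. NK-like cells had 5 of 8 and 5 of 9 apart at days 0 and 21, against 48.6% and 45%. The 5 of day 0 had 0 to 4 UMIs per library, and each of their count intervals included equal levels. Conventional dendritic-like cells had 4 of 8 and 4 of 9 apart at days 13 and 21, against 24.9% and 33.3%. Plasmacytoid dendritic-like cells had 9 of 11 apart at day 13, against 28.4%.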

How the data were processed

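The values analysed are UMI counts as deposited, whole numbers per gene and barcode without normalization. They were made with Cell Ranger 2.0.2 on build mm10, per the submitters' processing notes; the gene annotation behind the counts is not given in the sources used here. A barcode was kept with 200 or more genes and no more than 10% of its UMIs from mitochondrial genes (20007 of 20030). No doublet caller was applied, and barcodes with markers of more than 1 class mostly remained ungated (3415 cells without a class). A class was called from at least 3 of its markers with a lead of 15% in scaled share over the next class. UMIs were summed per library and class or state, and tested with edgeR 4.0.16 (TMM, filterByExpr, quasi-likelihood test, Benjamini-Hochberg over all genes, threshold 0.05) in R 4.3.3, with library or day as a block; DESeq2 1.42.0 was an alternative. The procedure was tested on simulated data. Stem-loops and poly(A) signals were searched in GENCODE M21 transcripts (GRCm38) and motifs in RefSeq promoters.

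Members are all genes of the 4 symbol groups. Those with 100 or more UMIs are given by library, and all that passed a test are named, up to 20 per comparison. The members and lists were chosen with earlier results of these data known. With 1 library per group, p-values measure only the spread left after the block, and count intervals (exact, 95%) cover counting error only. The pooled genotype comparisons and the day comparison in non-cycling cells were added after seeing the data. Overlapping genes and shared transcript ends make the division of counts uncertain: 11 genes share their last 100 bases with another, 8 overlap a gene on the same strand and 23 one on the other.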

Additional observations from a re-analysis of the deposited data

Results flagged for a closer look

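Hist1h1c differed between classes in the direction of its cycling difference. In monocyte/macrophage-like cells the log2 ratio of cycling to non-cycling CPM was above 0 in 5 of 5 libraries, the lowest at 0.11 and the median at 0.47. In neutrophil-like cells it was below 0 in 5 of 5 libraries, the highest at -0.22 and the median at -0.47. The difference between the classes was not tested.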

How the results depend on the processing

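No paired analysis was possible because every group has 1 library, and the shared number 1 marks no pairing; day served as the block between genotypes. Alternatives were another normalization, DESeq2, no filter on low counts, stricter gates, thinned cells, non-cycling cells only, another pseudocount and leaving out each library. Here and above, counts under an alternative lack the share over all genes and mostly the number tested. They therefore show only that a count moved and cannot be set against the shares of the main results. Most results kept direction and call; the exceptions follow, and the cause was not tested unless fewer genes, cells or samples made it so by construction.

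With no filter, more genes were tested: 39 were higher in cycling cells of all classes, 14 in T-like, 8 in microglia-like, 13 in monocyte/macrophage-like and 11 in neutrophil-like cells. By class, 14 were higher in microglia-like and 2 in monocyte/macrophage-like cells, 1 was called in NK-like and 0 in conventional dendritic-like cells. By day, 5 were lower at day 13 against 0 and 2 higher at day 21 against 13, and by genotype 1 was called in monocyte/macrophage-like and 1 in all cycling cells. Hist1h1c in cycling cells turned to -0.043. With DESeq2, 0 were lower in cycling microglia-like cells, 1 was higher at day 21 against 0, 3 were lower in S-leaning cells and 0 were called between genotypes in NK-like cells. Hist1h1c turned to -0.023 and Hist1h2ap between genotypes in T-like cells to -0.066. With DESeq2's size factors, 1 was lower in cycling microglia-like cells and Hist1h1c turned to -0.013.

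With thinned cells, 7 were higher and 1 lower in cycling cells; Hist1h1c turned to -0.045, Hist2h4 to 0.91 and Hist3h2ba to 1.14. With a gate of 4 UMIs, Hist3h2ba turned to 0.10, 1 was lower in cycling microglia-like and 0 in cycling monocyte/macrophage-like cells, 1 was higher and 1 lower in S-leaning cells, and Hist1h2ap turned there to 0.0077. With the stricter class gate, 9 were lower in T-like cells, 3 lower at day 13 against 0, 1 higher at day 21 against 0, and Hist1h1e between genotypes in microglia-like cells turned to -0.040. In non-cycling cells only, 0 were higher at day 13 and 0 at day 21 against day 0.

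Within days, non-cycling cells only gave 2 genes 1.5-fold apart in microglia-like cells at day 13, 3, 1 and 0 in neutrophil-like cells at days 0, 13 and 21, 2 in monocyte/macrophage-like cells at day 13, 3 in B lineage-like cells at day 21, 2 in conventional dendritic-like and 5 in plasmacytoid dendritic-like cells at day 13. Log2 ratios that changed sign there were Hist1h2ap at day 0 in T-like (3.69), neutrophil-like (3.44) and B lineage-like cells (3.17) and at day 21 in conventional dendritic-like cells (0.91). The others were Hist1h2ae in T-like (0.14) and neutrophil-like cells (1.74) at day 13 and B lineage-like cells at day 0 (0.43), Hist1h1b in T-like cells at day 21 (0.53) and B lineage-like cells at day 0 (1.27), and Hist1h1e in conventional dendritic-like cells at day 21 (0.26). The stricter gate gave 2 in microglia-like and 2 in T-like cells at day 13 and 2 in monocyte/macrophage-like cells at day 21. A pseudocount of 10 gave 3 in microglia-like cells at day 21, 2 and 2 in T-like cells at days 13 and 21, 1 in neutrophil-like cells at day 13, 1 in monocyte/macrophage-like cells at day 21, 3 in NK-like cells at day 0, and 2 in conventional dendritic-like and 4 in plasmacytoid dendritic-like cells at day 13.

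Leaving out each library gave these ranges. Genes higher ran from 2 to 4 in B lineage-like, 0 to 1 in T-like and 0 to 2 in monocyte/macrophage-like cells, where 2 to 5 were lower, and genes called from 0 to 1 in NK-like and 0 to 1 in conventional dendritic-like cells. In cycling microglia-like cells 0 to 1 were lower. At day 13 against 0, 0 to 2 were higher and 0 to 5 lower; at day 21, 0 to 2 were higher against day 0 and 0 to 3 against day 13. In S-leaning cells 0 to 1 were higher and 2 to 5 lower. Between genotypes, leaving out a day gave 0 to 1 in B lineage-like, 0 to 1 in microglia-like and 0 to 2 in neutrophil-like cells. In cycling cells Hist1h1c ran from -0.14 to 0.11, Hist1h2be from -0.071 to 0.21 and Hist3h2ba from -0.16 to 0.073. Between genotypes, Hist1h2ap in T-like cells ran from -0.26 to 0.18, Hist1h1e in microglia-like cells from -0.19 to 0.32 and in all non-cycling cells from -0.25 to 0.13, and Hist1h2ae in all cycling cells from -0.27 to 0.44. Leaving out a day could not be fitted for the genotypes in NK-like, conventional dendritic-like and monocyte/macrophage-like cells, since no residual degrees of freedom remain.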
